A study of Mus musculus with 2 samples.

Results

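The interleukin genes of mouse bone marrow stromal cells were described 1 and 3 days after total body irradiation with 9.5 Gy. They were taken as all genes whose array annotation symbol starts with Il and a digit, ligands and receptor chains alike, leaving out Il7 and Il15. The rule gave 72 genes of 16390 named on the array, each with 1 probe, of which 35 stood on the ligand side and 37 on the receptor side. The ligand side holds 33 cytokines and the antagonists Il1rn and Il1f5. The receptor side holds 34 signalling or accessory chains and the decoy or soluble receptors Il1r2, Il13ra2 and Il22ra2. Older annotation symbols brought in the neutrophil chemokine receptors Cxcr1 and Cxcr2 (annotated Il8ra and Il8rb), Il25 (Il17e), Ifnl3 (Il28) and Ifnlr1 (Il28ra).

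The groups were unirradiated C57BL/6 mice, C57BL/6 mice 1 day after 9.5 Gy and C57BL/6 mice 3 days after 9.5 Gy, with no genetic modification named in the labels. Each time point was represented by 1 two-channel array, with unirradiated RNA in Cy5 and irradiated RNA in Cy3. The series names 6 mice without saying how they were split or pooled, how stromal cells were purified, or how old the animals were. With 1 array per time point no value has a replicate error and no test was possible. Differences are therefore described by size, with a log2 ratio of 1 or more in size, or 2-fold, as the rule. Where a gene had more than 1 probe, its probes differed with a pooled SD of 0.76 on the log2 scale (85 genes) at day 1 and 0.58 (116 genes) at day 3, the only spread that could be measured. It leaves out differences between mice and hybridisations.

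The labels do not name the numerator of the ratio. Genes induced by p53 after radiation had a median log2 ratio of 1.57 (20 genes) at day 1 and 1.12 (21 genes) at day 3, above mitotic genes (0.95 and -2.97) and above all genes (0 by centring). On that basis a positive value is taken to mean more RNA after irradiation, a likely but unsettled direction. Were the numerator the unirradiated RNA, every "higher" and "lower" would be exchanged. A bias of single probes towards Cy3 or Cy5 would appear alike on both arrays, since no dye swap was used here.

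Interleukins are secreted proteins through which leukocytes and tissue cells signal to each other. Most act through a receptor of several chains, some of them shared among cytokines. The chain Il2rg serves the receptors of lymphoid growth factors, Il6st (gp130) those of the interleukin-6 family and Il10rb those of the interleukin-10 family. Receptors of the interleukin-1 family signal through MyD88 to NF-kB, and most others through JAK kinases and STAT factors. Control also comes from decoy receptors, which bind ligand without signalling, and from receptor antagonists. In marrow, stromal cells are known sources of interleukin-6, interleukin-7 and interleukin-11, while neutrophils and monocytes are known sources of interleukin-1 beta and carriers of its decoy receptor.

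The upstream sequences are given for the genes on which the day 1 and day 3 results turn: Il1b, the highest ligand at day 1, Cxcr2 and Il1r2, the 2 highest receptors at day 1, and Il6, a ligand at least 2-fold higher on both arrays. They were chosen after the values were seen. Each runs 5′ to 3′ on the strand of the gene over the 250 bases before the annotated start, from RefSeq (GRCm38.p6), a table that held 59 of the 72 genes. Capitals mark every match, on either strand, to an NF-kB-type motif (GGNNNTTCC), a C/EBP-type motif (TTNNGNAA), an AP-1-type motif (TGANTCA), a STAT-type motif (TTCNNNGAA) or a PU.1-type motif (GAGGAA), factors of inflammatory and myeloid genes.
Il1b, chr2:129371140-129371389, minus strand: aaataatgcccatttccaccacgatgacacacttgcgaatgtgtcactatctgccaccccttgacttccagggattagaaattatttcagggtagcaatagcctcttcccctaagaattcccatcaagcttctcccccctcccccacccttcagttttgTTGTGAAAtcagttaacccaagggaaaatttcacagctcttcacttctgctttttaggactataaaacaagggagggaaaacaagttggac
Cxcr2, chr1:74153744-74153993, plus strand: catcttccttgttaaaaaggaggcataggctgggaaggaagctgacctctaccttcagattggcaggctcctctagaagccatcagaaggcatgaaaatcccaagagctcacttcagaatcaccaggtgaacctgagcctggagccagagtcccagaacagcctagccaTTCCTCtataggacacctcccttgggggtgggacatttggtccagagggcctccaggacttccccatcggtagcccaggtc
Il1r2, chr1:40085843-40086092, plus strand: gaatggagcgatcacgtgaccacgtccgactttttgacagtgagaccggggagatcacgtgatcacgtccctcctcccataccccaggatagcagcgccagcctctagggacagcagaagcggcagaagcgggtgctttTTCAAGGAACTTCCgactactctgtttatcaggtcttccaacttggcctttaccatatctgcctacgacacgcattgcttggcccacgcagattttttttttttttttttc
Il6, chr5:30012864-30013113, plus strand: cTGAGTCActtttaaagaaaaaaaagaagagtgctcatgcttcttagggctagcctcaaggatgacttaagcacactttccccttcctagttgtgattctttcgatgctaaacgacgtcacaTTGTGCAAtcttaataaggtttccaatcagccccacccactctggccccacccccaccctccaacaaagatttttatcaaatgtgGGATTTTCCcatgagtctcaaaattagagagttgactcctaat
The Il1b window held 1 C/EBP-type match (TTGTGAAA) and the Cxcr2 window 1 PU.1-type match (TTCCTC, the reverse strand). The Il1r2 window held 1 STAT-type match (TTCAAGGAA) that overlaps an NF-kB-type match (GGAACTTCC) readable on both strands. The Il6 window held 1 NF-kB-type (GGATTTTCC), 1 C/EBP-type (TTGTGCAA) and 1 AP-1-type match (TGAGTCA). The same letters occur in many promoters: of 32851 windows of this length, 36.8% held the C/EBP-type, 23.3% the PU.1-type, 15.7% the NF-kB-type, 7.02% the STAT-type and 6.75% the AP-1-type motif. A match is a run of letters and not a shown binding site.

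At day 1 a ratio was given for 38 of the 72 genes (52.8%, against 63.7% of all 16390 genes), and at day 3 for 36 (50.0%, against 69.6%). Both arrays gave one for 29 genes, and 27 had none on either. What emptied the other entries is unstated in these sources. A gene with a ratio only where it is high would count as high, so counts and medians below describe the genes that passed and not all 72. Among the 38 genes of day 1, 21 passed the 2-fold rule upwards and 3 downwards, where 19.6% and 11.1% of all 10434 genes did. Their median log2 ratio was 1.13. Over the 29 genes with a ratio on both arrays the day 1 count was 12 upwards, or 41.4% against 17.2% of 9800 such genes, and the median was 0.66. Of the 36 at day 3, 6 were higher and 2 lower, where 7.35% and 6.85% of all 11404 genes were, and their median was 0.26, or 0.45 over the 29. The plot of each gene at both days shows a wider spread at day 1 than at day 3. Over the 29 genes the middle 50% ran from -0.13 to 1.66 at day 1. At day 3 it ran from -0.23 to 0.80. Over the 9800 genes on both arrays it ran from -0.60 to 0.64 and from -0.41 to 0.37. A narrower spread at day 3 was thus not particular to the interleukin genes.

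**Figure D1:**
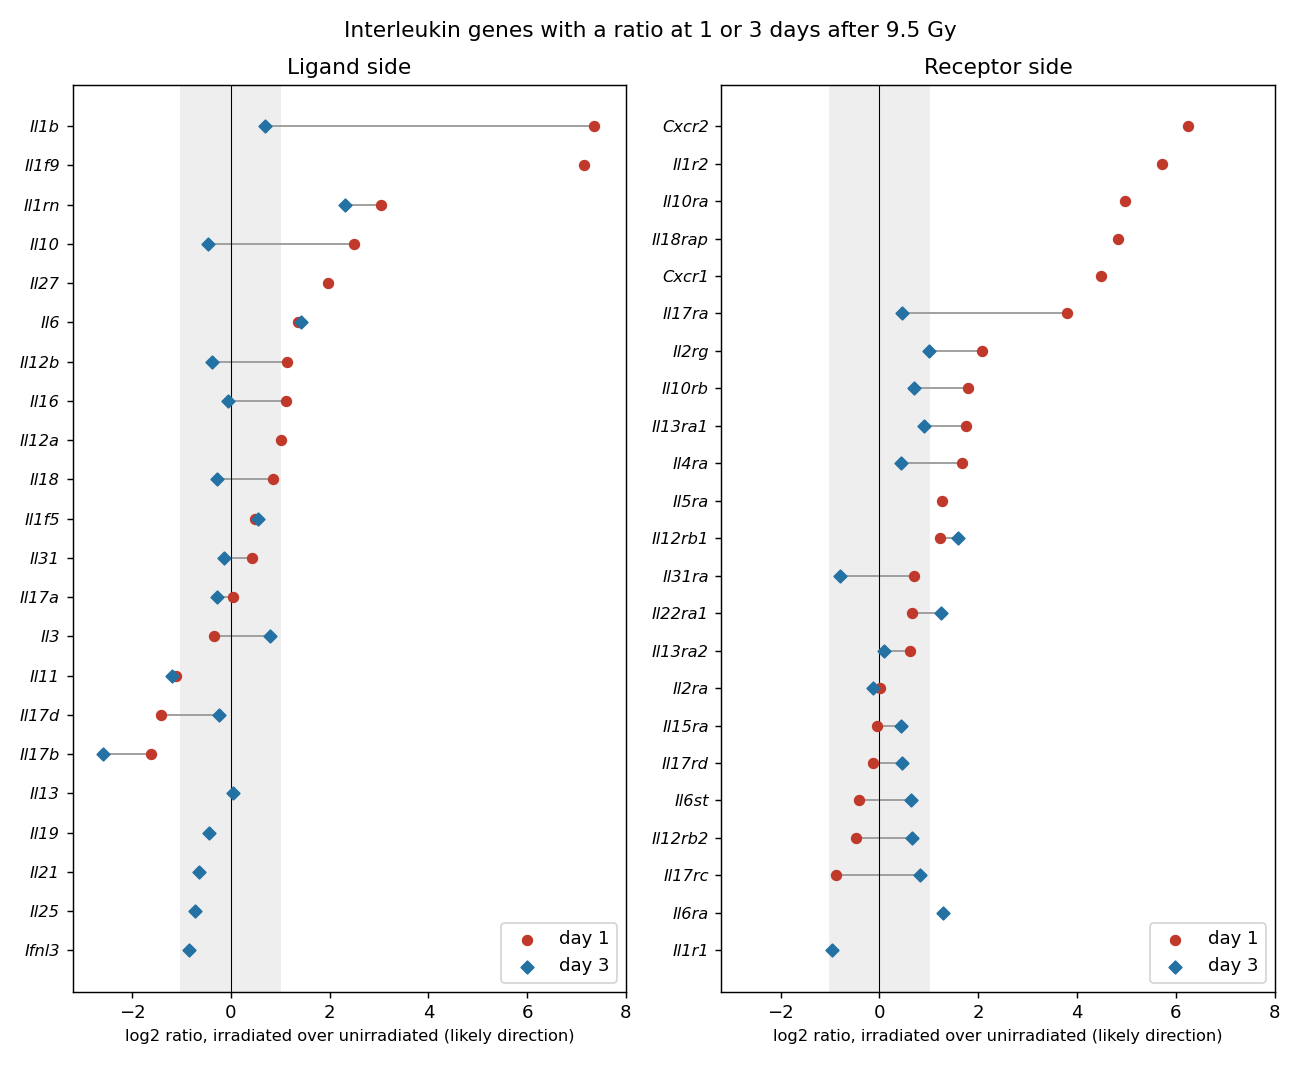
Log2 ratios (x axis, irradiated over unirradiated RNA in the likely direction) of the 45 interleukin genes with a ratio on at least 1 array, ligand side on the left and receptor side on the right. Red circles are day 1, blue diamonds day 3, grey lines join genes measured on both, and the shaded band marks values within 2-fold. Il1b stands at 7.36 at day 1 and 0.68 at day 3.

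The interleukin-1 family held the highest ligands of day 1. Il1b, the ligand that drives fever and neutrophil recruitment, had a log2 ratio of 7.36 (164-fold) at day 1 and 0.68 at day 3, so that it was far above the 2-fold bound at the early time and inside it at the later one. Il1f9, which encodes interleukin-36 gamma, a relative active in epithelia, stood at 7.16 (143-fold) at day 1 and had no ratio at day 3. Il1rn, the antagonist that occupies the interleukin-1 receptor without signalling, stood at 3.05 (8.27-fold) and 2.31 (4.95-fold). It was the highest of all interleukin genes at day 3 and was at least 2-fold higher at both times. Il18, a ligand that induces interferon gamma, was within 2-fold at 0.85 and -0.28. Il1f5, the interleukin-36 receptor antagonist, was at 0.49 and 0.54. Il1a, Il1f6, Il1f8 and Il1f10 had no ratio on either array.

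Of 7 interleukin-1 receptor chains only 2 had a ratio at day 1. Both were at least 2-fold higher, where 19.6% of all genes were, and 2 genes do not describe the family. Il1r2, the decoy that traps interleukin-1, stood at 5.71 (52.4-fold) and Il18rap, the accessory chain of the interleukin-18 receptor, at 4.83 (28.5-fold), and neither had a ratio at day 3. The signalling receptor Il1r1 was measured only at day 3, at -0.96, just inside the 2-fold bound on the lower side. Signalling receptor and decoy were thus never measured on the same array. Il18r1, Il1rap, Il1rapl1 and Il1rapl2 had no ratio.

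In the interleukin-6 and interleukin-12 families the ligands differed from each other. Il6, a cytokine of the acute phase and of myeloid growth, stood at 1.36 (2.57-fold) at day 1 and 1.42 (2.67-fold) at day 3, past the 2-fold bound by a similar margin each time. Il11, which supports megakaryocytes and bone formation, was at least 2-fold lower on both arrays, at -1.11 (2.16-fold) and -1.19 (2.28-fold). With ribosomal protein genes at 0 it was within 2-fold at both times (-0.60 and -0.61), and with the density peak at 0 at day 1 (-0.93). Il6 and Il11 both signal through Il6st and stood on opposite sides of 0 at both times. Il12b, the subunit shared by interleukin-12 and interleukin-23, was at 1.14 and -0.38, and Il12a, the other interleukin-12 subunit, at 1.01 at day 1, barely past the rule. Il27, the subunit that pairs with Ebi3, was at 1.97 (3.92-fold) at day 1, when Ebi3 itself stood at 5.88, and Ebi3 was at 0.47 at day 3. Il31 was within 2-fold at both times and Il23a had no ratio.

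Among 5 receptors of these families measured on the day 3 array, the 2-fold rule was passed upwards by 2 and downwards by none. Of all genes, 7.35% passed it upwards and 6.85% downwards, and 5 receptors are too few to describe the families. Il12rb1, the chain common to the interleukin-12 and interleukin-23 receptors, stood at 1.23 at day 1 and 1.60 (3.02-fold) at day 3. It was the highest receptor of day 3, while its partner Il12rb2 was at -0.48 and 0.65. Il6ra, the binding chain of the interleukin-6 receptor, was measured only at day 3, at 1.28 (2.43-fold). Il6st was within 2-fold on both arrays, at -0.42 and 0.64. With ribosomal protein genes at 0 it was at 1.22 at day 3, past 2-fold like Il6 and Il6ra. Il31ra was at 0.69 and -0.80, and Il23r and Il27ra had no ratio.

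Receptor chains of the common gamma chain group, with those for interleukin-13, were higher at day 1 in 3 of 6 cases and lower in none. Among all genes 19.6% were higher and 11.1% lower, so none lower among 6 says little. Il2rg, the common gamma chain itself, stood at 2.08 (4.24-fold) at day 1 and at 1.00 at day 3, where it lay on the 2-fold bound and was inside it with the density peak at 0. Il13ra1, which pairs with Il4ra to bind interleukin-13, was at 1.76 (3.39-fold) and 0.90. Il4ra, the chain common to interleukin-4 and interleukin-13, was at 1.66 (3.16-fold) and 0.44. All 3 chains were closer to 0 at day 3, as were 64.6% of all 9800 genes with a ratio on both arrays. The 3 are those past 2-fold at day 1, so this count says little. The decoy Il13ra2 (0.62 and 0.09), Il15ra, which presents interleukin-15 to neighbouring cells (-0.05 and 0.44), and Il2ra, the high-affinity chain of activated T cells (0.00096 and -0.14), were within 2-fold at both times. None of the 5 ligands of this group had a ratio at day 1, and at day 3 Il13 was at 0.04 and Il21 at -0.65. Il7r, the receptor of lymphoid progenitors, had no ratio.

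In the interleukin-10 family, both chains of the interleukin-10 receptor and their ligand were higher at day 1. Il10, a cytokine that restrains macrophages, stood at 2.50 (5.64-fold) at day 1 and -0.46 at day 3. Il10ra, the binding chain, was at 4.96 (31.1-fold) at day 1 with no ratio at day 3, and Il10rb, the shared second chain, was at 1.79 (3.45-fold) and 0.71. Il22ra1, a chain of the interleukin-22 receptor known mainly from epithelia, stood at 0.66 at day 1 and 1.25 (2.38-fold) at day 3. At day 3, Il19 (-0.43) and Ifnl3 (-0.84) were within 2-fold.

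The interleukin-17 family held the lowest 2 ligands of day 1 and the lowest of day 3. Il17b was at -1.62 (3.07-fold lower) at day 1 and -2.59 (6.03-fold lower) at day 3, the lowest of all interleukin genes at each time. Il17d was at -1.42 (2.68-fold lower) and -0.23. Il17a, the T cell cytokine that mobilises neutrophils, was at 0.04 and -0.28, and Il25 was measured at day 3 only, at -0.72. All 4 ligands with a ratio at day 3 were below 0, a side that Il17a and Il17d leave with ribosomal protein genes at 0. Il17ra, the chain shared by most receptors of the family, stood at 3.79 (13.8-fold) at day 1 and 0.45 at day 3. Its partner for interleukin-17A, Il17rc, was on the other side of 0 at day 1, at -0.88, and at 0.82 at day 3. Il17rd was at -0.13 and 0.45.

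The remaining genes were mostly higher at day 1. Cxcr2, the main chemokine receptor of neutrophils, stood at 6.23 (75.3-fold), the highest receptor of all, and Cxcr1 at 4.49 (22.4-fold), both with no ratio at day 3. Il5ra, the receptor of eosinophils, was at 1.27 (2.40-fold) at day 1 only. Il16, a chemoattractant made as a nuclear precursor in lymphocytes, was at 1.12 (2.17-fold) and -0.05. Il3, a growth factor of mast cells and early progenitors, was within 2-fold at -0.34 and 0.80. Il5 had no ratio.

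Ligands and receptors were compared on each array. At day 1 the 2-fold rule was passed upwards by 9 of 17 ligands and downwards by 3, and by 12 of 21 receptors upwards and none downwards, against 19.6% higher and 11.1% lower among all genes. The ligand median was 1.01 and the receptor median 1.27, a difference of 0.25. Over the 14 ligands and 15 receptors with a ratio on both arrays the medians were 0.67 and 0.66, a difference of -0.0076. The lowest receptor was Il17rc at -0.88. With 11.1% lower among all genes, none lower among 21 receptors says little. The 3 genes at least 2-fold lower, Il17b, Il17d and Il11, were all ligands, or 17.6% of the 17. With ribosomal protein genes at 0, which raised all genes by 0.51, only Il17b of the 3 was still past 2-fold.

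At day 3 the medians of the sides lay further apart. Of 19 ligands, 2 were at least 2-fold higher (Il1rn and Il6) and 2 lower (Il17b and Il11). Of 17 receptors, 4 were higher (Il12rb1, Il6ra, Il22ra1 and Il2rg) and none lower, against 7.35% higher and 6.85% lower among all genes. The ligand median was -0.28, with 6 of 19 above 0, and the receptor median 0.64, with 14 of 17 above 0. The medians differed by 0.92, or 1.89-fold, and by 0.83 over genes measured on both arrays. No error of a median could be measured, so neither day's difference was tested. This difference does not depend on where 0 is set, while the counts do. With ribosomal protein genes at 0 the median of all genes became 0.58 and 82.3% of all genes lay above 0 at day 3. The ligand median was then 0.30, below that of all genes, with 14 of 19 above 0, and 15 of 17 receptors were above 0 with a median of 1.22. That centring put 18 interleukin genes past 2-fold upwards and 1 downwards at day 3, or 50.0% and 2.78%, where 24.9% and 2.30% of all genes were. Higher genes then made up 94.7% of the interleukin genes past the rule and 91.6% of all genes past it, in place of 75% and 51.8%. At day 1 these shares were 87.5% and 63.9%, or 96.2% and 89.9% with ribosomal protein genes at 0. Among ligands alone the share was 75% at day 1 and 50.0% at day 3, or 90.9% and 83.3% with that centring.

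**Figure D2:**
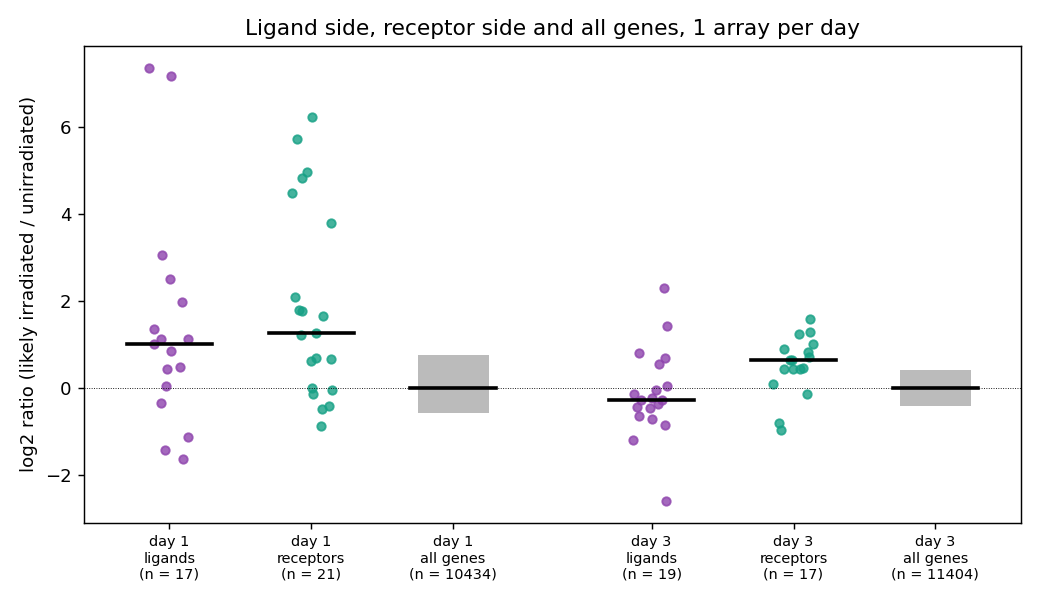
Log2 ratio (y axis) of each ligand and receptor at day 1 (left) and day 3 (right), with a thick line at the median. Grey boxes give the middle 50% of all genes on that array. The ligand and receptor medians are 1.01 and 1.27 at day 1 and -0.28 and 0.64 at day 3.

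Between the time points, 29 genes could be compared, of which 10 were lower by 2-fold or more at day 3 and 5 higher, where 16.8% and 12.1% of all 9800 such genes were. The median difference was -0.53, and -0.04 over all genes. The genes lower at day 3 were led by Il1b (-6.68, or 102-fold), Il17ra (-3.34) and Il10 (-2.96), followed by Il12b (-1.51), Il31ra (-1.49), Il4ra (-1.22), Il16 (-1.17), Il18 (-1.13), Il10rb (-1.08) and Il2rg (-1.08). Those higher at day 3 were Il17rc (1.70), Il17d (1.19), Il3 (1.15), Il12rb2 (1.14) and Il6st (1.06). Il6 (0.06), Il11 (-0.08) and Il1f5 (0.06) differed least. The counts became 12 lower and 2 higher with the density peak of each array at 0, an alternative for this count chosen after seeing the data, under which 20.6% of all genes were lower and 8.37% higher. Both arrays used unirradiated RNA, possibly of the same mice, and the difference carries the unmeasured error of each.

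**Figure D3:**
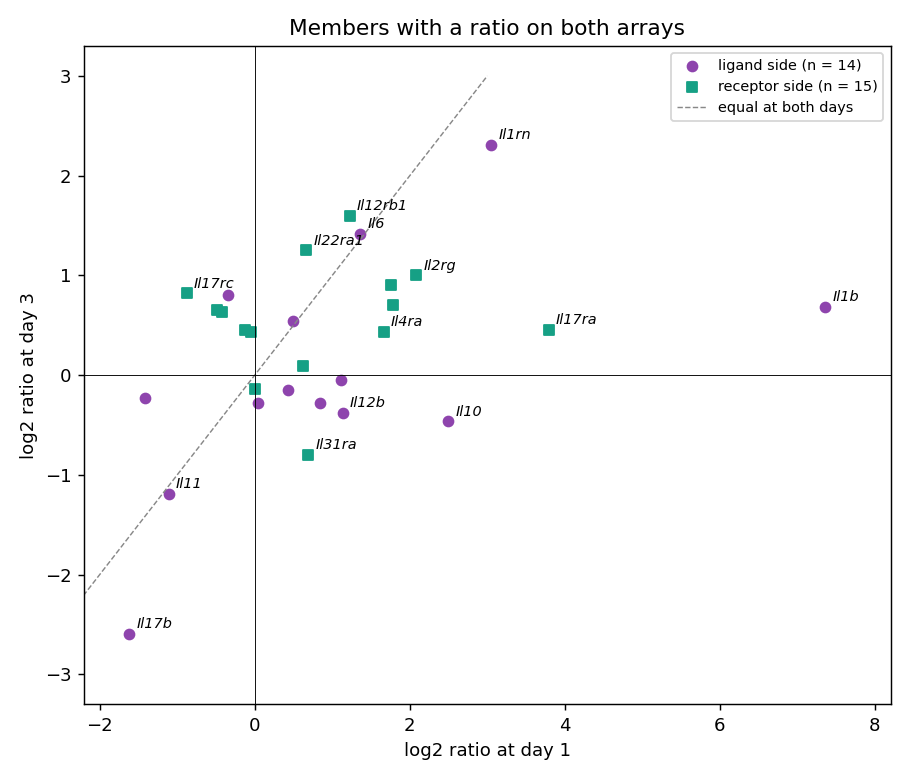
Log2 ratio at day 1 (x axis) against day 3 (y axis) for the 14 ligands (circles) and 15 receptors (squares) with a ratio on both arrays; the dashed line marks equal values. Il6 and Il11 lie on the line, and Il1b, Il17ra and Il10 lie far below it.

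All 9 interleukin genes measured only at day 1 were at least 2-fold higher there, as were 366 of all 634 genes measured only then. The 9 were Il1f9, Il27 and Il12a among ligands, and Cxcr2, Il1r2, Il10ra, Il18rap, Cxcr1 and Il5ra among receptors. Of the 21 genes higher at day 1, 42.9% thus had no ratio at day 3, and of the 12 such receptors 50.0%. Over all genes at least 2-fold higher at day 1, 17.9% of 2047 had none. The 5 highest receptors of day 1 therefore have no day 3 value, and their later level is unknown. The 7 genes measured only at day 3 were Il6ra, Il1r1, Il13, Il19, Il21, Il25 and Ifnl3, of which only Il6ra was past 2-fold. Of all 1604 genes measured only at day 3, 240 were at least 2-fold higher and 118 lower.

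Genes that make or pass on interleukin signals were taken from lists on the same scale, against the same shares of all genes past 2-fold (19.6% higher and 11.1% lower at day 1, 7.35% and 6.85% at day 3). Of 7 genes of the inflammasome, which cleaves the interleukin-1 beta and interleukin-18 precursors, 6 passed the rule upwards at day 1 and none downwards, with a median of 2.57. Nlrp3, the sensor, was highest at 5.08, the protease Casp1 was at 3.06 and Nek7 lowest at 0.23. At day 3, 1 of 6 was higher (Aim2, 1.28) and 1 lower (the adaptor Pycard, -1.07). Of 15 genes of the MyD88 arm, 7 were higher at day 1 and none lower, from Traf3ip2, the adaptor of interleukin-17 receptors, at -0.54 to Nfkbiz at 2.77. At day 3 the range of 13 genes was -0.20 (Tnfaip3) to 0.80 (Relb), with none past 2-fold.

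Of 10 JAK and STAT genes, 4 were higher at day 1 and 1 lower, with a median of 0.79, Stat4, which interleukin-12 activates, highest at 5.22 and Stat5a lowest at -1.59. None of 9 was past 2-fold at day 3, from Stat5a (-0.41) to Stat2 (0.87). Among 11 SOCS genes and other brakes, 2 were higher at day 1, or 18.2%, near the 19.6% of all genes, and the median was -0.02, with the leukocyte phosphatase Ptpn6 at 4.54 and Socs2 lowest at -0.44. Socs3, which interleukin-6 induces, was at -0.12 at day 1 and 0.21 at day 3. At day 3 none of 11 was past 2-fold, from Socs1 (-0.33) to Pias3 (0.58). Of 11 shared and partner chains not named as interleukins, 5 were higher at day 1 and 1 lower, from Tslp (-1.61) to Ebi3 (5.88). At day 3, 1 of 10 was lower, Osm at -1.04, a ligand of the interleukin-6 family that stood at 4.24 at day 1, and Sigirr was highest at 0.89.

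Leukocyte genes differed between the arrays as well. All 16 granulocyte markers with a ratio were at least 2-fold higher at day 1, from 4.07 to 7.97 with a median of 5.96, and at day 3, 1 of 13 was higher and 6 lower, with a median of -0.70. All 11 pan-leukocyte genes were higher at day 1 (2.59 to 8.17) and none of 8 at day 3 (-3.09 to 0.56, median -0.98). Macrophage markers were higher in 4 of 8 cases at day 1 (-0.08 to 6.17) and 2 of 6 at day 3 (median 0.87), and markers of T and NK cells in 2 of 3 (median 2.75) and 0 of 4 (median 0.51). Mast cell and basophil markers were higher in 3 of 5 and 1 of 5. The 1 eosinophil marker with a ratio, Prg2, was at 3.21 and -2.47, and B lineage markers ranged from -1.86 to 1.67 at day 1 and from -3.34 to 0.61 at day 3. Cxcr2, Il1r2 and Il1b, genes that neutrophils are known to express, stood within the granulocyte range at day 1. So did Il1f9, Il10ra, Il18rap and Cxcr1. All of these values also lay within the wider pan-leukocyte range, so the ranges do not single out a cell type. The part of leukocytes of any type in the interleukin values was not tested. In RNA from a mixture of cells, more cells of a type and more RNA per cell cannot be told apart.

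Markers of the labelled stromal cells, and those of endothelial and erythroid cells, took other values. Their counts stand against the same shares of all genes, 19.6% higher and 11.1% lower at day 1, and 7.35% and 6.85% at day 3. For mesenchymal stroma, 14 of 17 markers had a ratio at day 1, with a median of -0.95, 1 past 2-fold upwards and 6 downwards, and 15 had one at day 3, with a median of 0.02. Of 11 endothelial markers, 3 were past 2-fold upwards at day 1 and none downwards, with a median of 0.57. The median of 12 was 1.80 at day 3, when 11 were past 2-fold upwards and Erg downwards at -1.30. Erythroid markers were lower in 6 of 7 cases at day 1 and 7 of 8 at day 3. Ratios give no level, so the labelled cell type could not be checked against its markers.

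**Figure D4:**
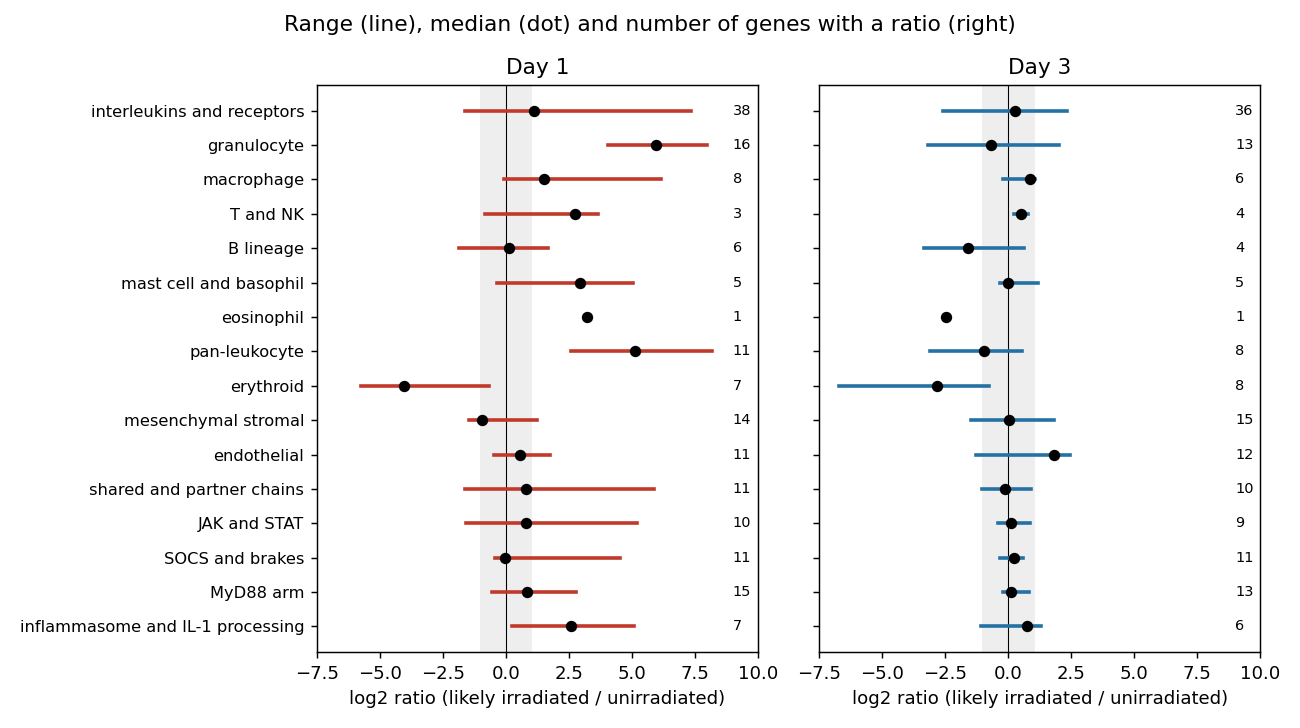
Range (line) and median (black dot) of log2 ratios on the x axis for the interleukin genes, 10 lists of cell markers and 5 lists of signalling genes, at day 1 (left) and day 3 (right). The number of genes with a ratio stands at the right edge, and granulocyte markers move from a median of 5.96 to -0.70.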

How the data were processed

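Each deposited column holds, per the file headers and the labels, 1 array's log ratio between its channels for every probe. The authors deposited these ratios already centred, and they were read as log2 values; the logarithm base, scanner, background treatment and normalisation are not given in the sources used, and folds assume base 2. Before any step here the column medians stood at 0.00035 (day 1) and -0.00013 (day 3). Of 23473 probes, 6842 carried no symbol and were left out, and ratios were empty for 40.5% (day 1) and 34.3% (day 3). Per the labels' protocols, both RNAs were amplified with an amino allyl kit and then coupled to dyes. Intensities were not used here, so signal over background is unknown; precision is limited by the number of arrays.

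RefSeq gene names (GRCm38.p6) renamed 5 of the 72 interleukin genes. Probes were averaged per gene and the gene median of each array was set to 0, a shift of 0.01 (day 1) and -0.02 (day 3), in Python 3.11.15 with pandas 2.3.3. Calls were log2 ratios of at least 1 in size. Averaging, centring and calling were tested on simulated data with planted ratios. Its noise was smaller than the spread between probes here, so it checked the code and not the error of calls. Genes, roles and lists were chosen with earlier results of these data known. Named were all interleukin genes past 2-fold, the highest and lowest of each role and list, the 3 largest changes each way in time, and a fixed set that includes Il18, Il1r1, Il6st and Il7r. Alternatives were 3 other centrings, 2 other summaries of probes, genes on both arrays, decoys left out, and rules of 3-fold and 1.5-fold.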

Additional observations from a re-analysis of the deposited data

Results flagged for a closer look

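Il17rc, a chain of the interleukin-17A receptor, stood on opposite sides of 0 at the time points, at -0.88 at day 1 and 0.82 at day 3, each further from 0 than the SD between probes of 1 gene. The day 1 value lay inside that SD under 2 other choices of 0, at -0.70 (density peak) and -0.37 (median of ribosomal protein genes). With 1 array per time point the difference was not tested.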

How the results depend on the processing

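No paired analysis was possible because each time point has 1 array. Of 77 recomputed counts and medians, 64 stayed within 1.5 times the count or within the SD between probes. Many of these could not move, so the tally is a weak check. Each interleukin gene has 1 probe, and another choice of 0 leaves the difference between the sides unchanged. Other choices of 0 moved values by at most 0.51 (day 1) and 0.58 (day 3). They could therefore not change the sign of a value at least 2-fold in size, and none changed. With ribosomal protein genes at 0, the interleukin median at day 3 became 0.84, 18 genes were higher and 1 lower at day 3, and 1 was lower at day 1. Over the 29 genes on both arrays, 12 were higher at day 1. With the density peak at 0, 2 were at least 2-fold higher at day 3 than at day 1. The 3-fold rule left 1 lower at day 1, 2 higher and 1 lower at day 3, and 1 higher and 3 lower for day 3 against day 1; the 1.5-fold rule gave 13 higher and 7 lower at day 3. The difference between receptor and ligand medians was 0.83 to 0.93 at day 3, and -0.0076 to 0.25 at day 1. No probe alternative applied to single interleukin genes beyond the centring, as each has 1 probe. Counts for day 3 against day 1 were recomputed after seeing the data. Ratios without intensities leave signal over background unknown.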

Other observations

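Interleukin genes that the annotation lists under other names, and the 2 left out by the rule, had these values. Il33, an alarmin of stromal and endothelial nuclei annotated under a clone name, stood at -1.47 at day 1 and -0.62 at day 3, and Il34, a ligand of the macrophage receptor Csf1r, at -1.21 and 0.90. Il20rb was measured at day 3 only, at 0.12. Il7 stood at 0.01 and 1.41, and Il15 at 1.92 and 0.78.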
